A study of Mus musculus with 8 samples.

Results

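Red cell genes were followed in thymus lobes of 4 C57BL/6NTac mice that spent 13 days aboard the shuttle in orbit, and of 4 ground-control mice of the same strain, age and sex, which lived in the same type of animal enclosure module. The mice were 8 weeks old per the design text, and each gave a single array. The labels name no engineered allele and no agent in either group. RNA came from whole thymus lobes taken at the end of the mission, so launch and landing are part of what the flown mice went through. The genes are Alas2, Slc4a1, Klf1, Gata1, Epor, Bpgm, Hbb-b1 and Hba-a1, 8 of the red cell lineage, listed by name and measured by probe sets that the array's annotation ties to a single gene. Of these 8 genes, 6 had such a probe set, out of 19938 genes in all, and each of the 6 had exactly 1. Hba-a1 and Hbb-b1 had none, because their probe sets are annotated to several adult globin genes, and those probe sets are described separately and credited to no single gene.

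Red cells form in bone marrow and spleen, where the transcription factors GATA1 and KLF1 switch on the genes for globin, heme synthesis and the red cell membrane, and where erythropoietin acting through its receptor keeps the precursors alive. The nucleus is then expelled, and the young red cell, the reticulocyte, carries its remaining globin and Alas2 messenger RNA into the blood. The thymus makes T cells and is not a site where most red cells form, so a piece of it holds red cell transcripts mainly through the blood in its vessels and any red cell precursors lodged in it. In bulk tissue, fewer cells of a type and less RNA per cell cannot be told apart.

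The values are log2 expression values after RMA, in which 1 unit is a doubling, and they give no detection call. A level on this scale can be compared between arrays for the same probe set but not between genes. Array medians lay between 6.01 and 6.1 over the 28943 probe sets tested. The values of spaceflight replicates 1 and 3 were less widely spread, with an interquartile range of 2.43 in both, against 2.68 to 2.95 in the other 6 arrays. The tissue label fitted its markers, since 9 of 10 thymocyte genes were measured, with Rag1, a subunit of the antigen receptor recombinase, averaging 12.46 and Cd8a, a T cell co-receptor chain, averaging 11.79 over the 8 arrays. The mean over these 9 genes ran from 10.27 to 10.55 in spaceflight arrays and from 10.51 to 10.60 in ground-control arrays. All 9 had lower means in spaceflight with the deposited values (median -0.15), but 5 of 9 did with arrays centred on the 75th percentile (median -0.0075), and 5 of 9 were lower relative to genes of the same brightness (median -0.03). The arrays of the groups did not overlap for 2 of the 9, Rag2 (-0.25 ± 0.11) and Cd8a (-0.22 ± 0.10), with limma adjusted p of 0.449 and 0.467, where 6.01% of all genes did not overlap.

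After spaceflight, Alas2 and the adult globin probe sets had lower means, by 0.60 to 0.73 on the log2 scale, while the regulators Gata1 and Klf1, the receptor Epor, the membrane gene Slc4a1 and the enzyme Bpgm differed by at most 0.17. None of these differences passed the test. With limma, 0 of the 6 measured genes reached an adjusted p under 0.05, where 0.0802% of all genes did (16 of 19938, with 3 higher and 13 lower). At an unadjusted p under 0.05 stood 1 of the 6, Alas2, where 10.8% of all genes stood. In 0 of the 6 did the spaceflight and ground-control arrays lie apart without overlap, against 6.01% of all genes. The median difference of the 6 genes was -0.07, beside -0.02 for all genes, of which 53.5% were lower. Centring each array on its 75th percentile turned the members' median to 0.07 and moved the median of all genes to 0.12.

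Alas2 encodes the red cell form of aminolevulinate synthase, which starts heme synthesis. It lies on the X chromosome at chrX:150547417-150570622 (GRCm38.p6) and was read by probe set 10602372. Its log2 values were 6.21, 7.69, 7.67 and 6.88 in the 4 spaceflight arrays, against 7.44, 7.84, 8.63 and 7.47 in the 4 ground-control arrays. Spaceflight replicate 1 was the lowest array and ground-control replicate 3 the highest, and spaceflight replicates 2 and 3 lay among the controls. The means were 7.11 ± 0.71 in spaceflight and 7.85 ± 0.56 in ground control (SD, n = 4 each), a difference of -0.73 with a 95% confidence interval from -1.46 to -0.01 (limma adjusted p = 0.458). All 4 spaceflight arrays were below the ground-control mean, but the exact two-sided permutation p was 0.229, where 0.0286 is the smallest that 4 arrays against 4 allow. Without spaceflight replicate 1 the difference was -0.43, and without ground-control replicate 3 it was -0.47. Alas2 varied between mice of a group more than most genes. Its pooled within-group SD was 0.64, larger than that of 99.3% of genes, where the median gene had 0.19.

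**Figure D1:**
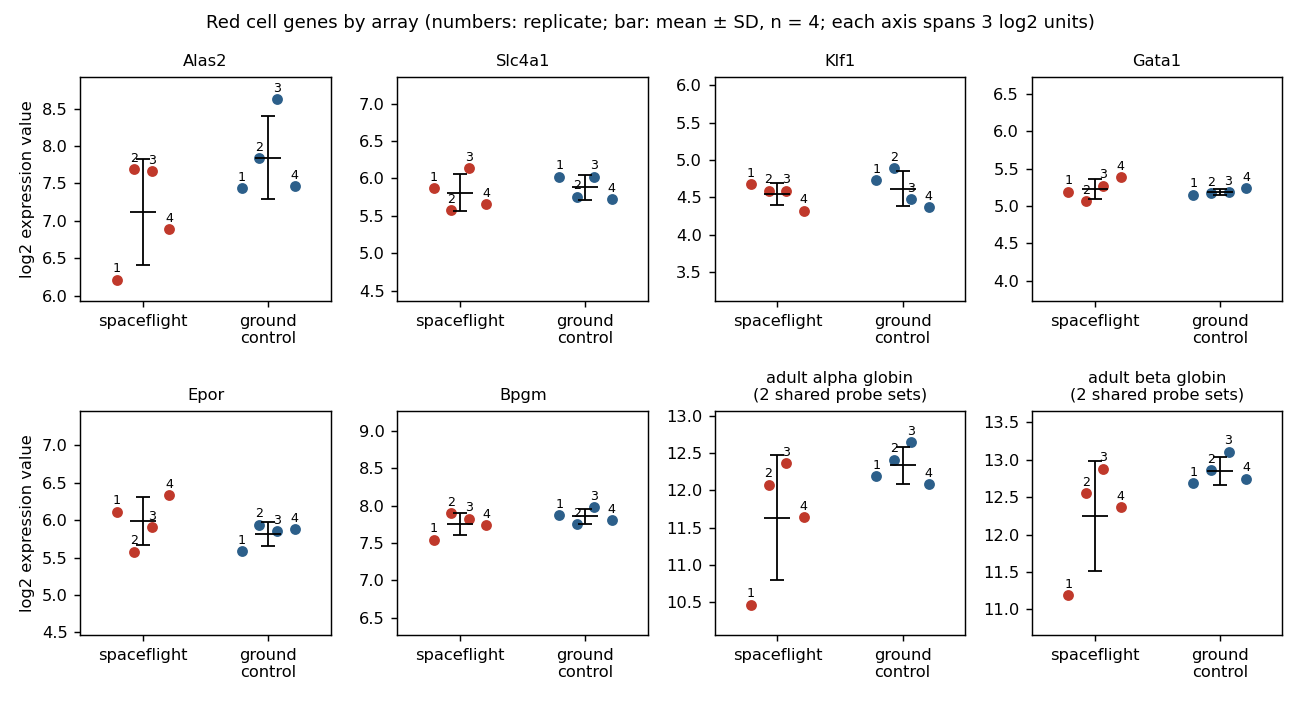
Log2 expression values of the 6 measured red cell genes and of the averaged adult alpha and beta globin probe sets, with points for single arrays, spaceflight left and ground control right, and bars for mean ± SD (n = 4). Each vertical axis spans the same number of log2 units. Spaceflight replicate 1 is the lowest array for Alas2 (6.21) and for both globin pairs (10.47 and 11.19), while Gata1 hardly varies.

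The adult globins are the protein chains of hemoglobin, a pair of alpha and a pair of beta chains in each molecule. C57BL/6 mice carry the beta globin haplotype with the genes Hbb-bs and Hbb-bt, and Hbb-b1 and Hbb-b2 belong to the other common mouse haplotype, so a probe set that matches all 4 reads the strain's own pair here. Probe sets 10375051 and 10375058 are annotated to both Hba-a1 and Hba-a2. Probe sets 10566254 and 10566258 are annotated to Hbb-bt, Hbb-bs, Hbb-b2 and Hbb-b1. The probe sets of a pair differed by at most 0.05 (alpha) and 0.04 (beta) on any array and were averaged, a choice made after seeing the data.

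The shared alpha globin probe sets had log2 values of 10.47, 12.08, 12.36 and 11.64 in the spaceflight arrays, against 12.19, 12.41, 12.64 and 12.08 in the ground-control arrays. The shared beta globin probe sets had 11.19, 12.56, 12.88 and 12.36 in the spaceflight arrays, against 12.68, 12.86, 13.11 and 12.75 in the ground-control arrays. In both, spaceflight replicate 1 was far below every other array, spaceflight replicate 4 was the next lowest of the flown mice, and spaceflight replicate 3 lay within the control range. The alpha means were 11.63 ± 0.83 in spaceflight and 12.33 ± 0.25 in ground control, and the beta means 12.25 ± 0.74 in spaceflight and 12.85 ± 0.19 in ground control (SD, n = 4 each). The differences were -0.70 for alpha (exact two-sided permutation p = 0.114) and -0.60 for beta (exact p = 0.143).

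In the limma fit over all 28943 probe sets, where 0.0484% were called, none of these 4 was. Their adjusted p ran from 0.501 to 0.504 and their unadjusted p from 0.0677 to 0.0737. Without spaceflight replicate 1 the differences were -0.31 for alpha and -0.25 for beta. They remained below 0 under the other scalings, from -0.56 to -0.46 with arrays centred on the 75th percentile. Their within-group SD was larger than that of 97.1% to 98.1% of all probe sets.

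**Figure D2:**
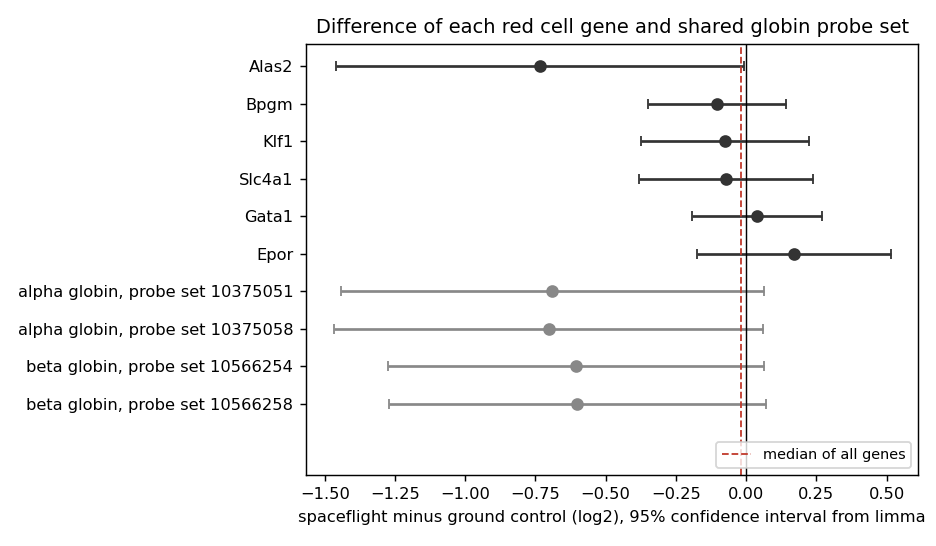
Spaceflight minus ground control on the log2 scale for the 6 measured red cell genes and the 4 shared globin probe sets, with 95% confidence intervals from limma and the median of all genes as a dashed line. The intervals of Alas2 and the globin probe sets are the widest, and only that of Alas2 (-1.46 to -0.01) ends short of 0.

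The stretches before the start sites of Alas2 and of the adult globin genes are shown because the probe sets of these genes had alike profiles over the arrays. Each line gives the 250 bases before the annotated start (RefSeq, GRCm38.p6), with GATA words (AGATAA or else AGATAG, and likewise TGATAA or else TGATAG, of the kind GATA1 binds) and CACCC words (CCACACCC or else CCACGCCC, and likewise CCCCACCC or else CCCCGCCC, of the kind KLF1 binds) on either strand in capitals. Alas2 is read from chrX:150547167-150547416 on the plus strand, Hba-a1 from chr11:32283422-32283671 on the plus strand, Hbb-bs from chr7:103827929-103828178 on the minus strand and Hbb-bt from chr7:103813924-103814173 on the minus strand.
Alas2: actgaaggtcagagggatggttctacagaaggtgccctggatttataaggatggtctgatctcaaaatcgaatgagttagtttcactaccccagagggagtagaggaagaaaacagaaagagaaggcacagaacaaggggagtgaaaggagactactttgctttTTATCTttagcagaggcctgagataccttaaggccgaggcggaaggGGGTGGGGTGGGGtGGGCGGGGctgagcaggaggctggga
Hba-a1: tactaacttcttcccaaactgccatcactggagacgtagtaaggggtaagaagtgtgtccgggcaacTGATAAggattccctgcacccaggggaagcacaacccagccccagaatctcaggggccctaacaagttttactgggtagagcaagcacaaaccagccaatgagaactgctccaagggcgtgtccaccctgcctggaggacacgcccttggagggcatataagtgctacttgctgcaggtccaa
Hbb-bs: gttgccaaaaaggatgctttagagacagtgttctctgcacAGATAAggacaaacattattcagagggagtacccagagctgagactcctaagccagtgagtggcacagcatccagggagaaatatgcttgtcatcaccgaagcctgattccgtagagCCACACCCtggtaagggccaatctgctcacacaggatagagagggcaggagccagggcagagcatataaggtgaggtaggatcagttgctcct
Hbb-bt: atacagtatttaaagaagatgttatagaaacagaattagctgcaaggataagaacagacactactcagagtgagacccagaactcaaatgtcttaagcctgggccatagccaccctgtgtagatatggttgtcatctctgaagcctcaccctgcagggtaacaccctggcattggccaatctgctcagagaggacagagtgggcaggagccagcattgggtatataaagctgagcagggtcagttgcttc

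The Alas2 stretch held 1 GATA word, beginning 86 bases before the start, and 3 CACCC words between 40 and 26 bases before it, the first 2 of which overlap. Hba-a1 held 1 GATA word, Hbb-bs held 1 of each kind, and Hbb-bt held neither. Hba-a2, the other adult alpha gene, shares an unbroken run of 247 of the 250 bases with Hba-a1. Among the other members, Slc4a1 and Hbb-b1 had no promoter entry and were not read. Klf1 held 1 GATA word, Epor 1 GATA and 2 CACCC words, and Gata1 and Bpgm 1 CACCC word each. The Gata1 stretch (chrX:7967911-7968160, minus strand) lies within the gene's annotated span, so it precedes an inner start and not the outer end of the gene. Such words are common: 26.5% of the 32851 promoters in the table hold a GATA word in the same window and 27.4% a CACCC word. A match is a description of the letters and does not show that a factor binds there.

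Alas2 and the globin probe sets went up and down together from mouse to mouse. Over the 8 arrays Alas2 correlated with the shared alpha globin probe sets at a Pearson r of 0.928 (permutation p = 0.000446, adjusted p = 0.00625) and a Spearman rho of 0.833 (permutation p = 0.0154, adjusted p = 0.143). With the shared beta globin probe sets the Pearson r was 0.902 (permutation p = 0.000918, adjusted p = 0.00857) and the Spearman rho 0.81 (permutation p = 0.0218, adjusted p = 0.152). These p-values were adjusted over the 28 pairs among 6 genes and 2 globin measures, computed after the profiles had been seen. By Pearson's r 3 of the 28 pairs passed, these and alpha with beta globin (r = 0.992, permutation p = 0.000174, adjusted p = 0.00486), and by Spearman's rho alpha with beta globin alone passed (rho = 0.952, permutation p = 0.00114, adjusted p = 0.0319).

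Leaving out the arrays farthest from the Alas2 median, spaceflight replicate 1 and ground-control replicate 3, left an r of 0.914 with alpha globin and 0.799 with beta globin over 6 arrays. With each group's mean removed, r was 0.897 with alpha globin and 0.860 with beta globin over the 8 arrays. Each group alone, with 4 arrays, is too small for a correlation of its own. All probe sets share the same 8 arrays and their normalization. The share of all genes with such an r was not computed, so the relation is not shown to be particular to red cell genes. Tmtc2 and Dgat2, on no red cell list, had an r of 0.994 and 0.958 with the mean profile of the 6 measured genes.

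Within an array, the log2 value of Alas2 minus that of the shared alpha globin probe sets was taken. It was -4.26, -4.38, -4.69 and -4.75 in the spaceflight arrays, against -4.75, -4.57, -4.01 and -4.61 in the ground-control arrays. The size of such a difference is not a ratio of the transcripts, and it is read only between arrays. The group means were -4.52 ± 0.24 in spaceflight and -4.48 ± 0.32 in ground control (SD, n = 4 each; exact two-sided permutation p = 0.8286). Alas2 minus the shared beta globin probe sets averaged -5.13 ± 0.27 in spaceflight and -5.01 ± 0.37 in ground control (SD, n = 4 each; exact two-sided permutation p = 0.629). The groups overlapped in both differences.

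**Figure D3:**
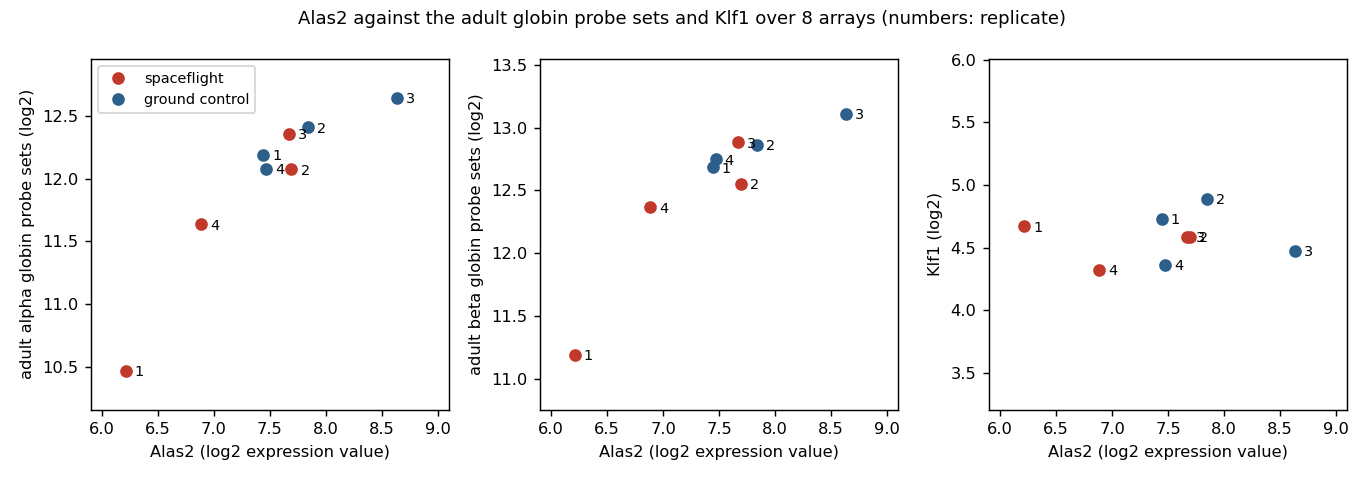
Alas2 on the horizontal axis against the shared alpha globin probe sets, the shared beta globin probe sets and Klf1 on the vertical axes, all in log2 expression values, with a numbered point for each of the 8 arrays. Alas2 and the globin probe sets lie along a rising line (r = 0.928 and 0.902), with spaceflight replicate 1 at its low end, and Klf1 shows no such line (r = 0.0315).

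Gata1 and Klf1 encode transcription factors of red cell precursors. Their probe sets were dim, with means over the 8 arrays of 5.21 for Gata1 and 4.58 for Klf1, as were those of Epor and Slc4a1, all under the minimum of 6 used as a filter on dim genes. A dim probe set can understate a change in its transcript, so the small differences of these 4 genes do not show that the transcripts did not change. Gata1 (chrX:7959260-7976663, probe set 10603417) had log2 values of 5.19, 5.06, 5.27 and 5.38 in the spaceflight arrays, against 5.15, 5.18, 5.19 and 5.24 in the ground-control arrays. Its difference was 0.04, with an interval from -0.19 to 0.27 on the scale of this dim probe set (adjusted p = 0.891). Its pooled SD of 0.10 was smaller than that of most genes, with 6.85% of genes below it. GATA1 also serves megakaryocytes, mast cells and eosinophils, so this gene does not mark red cell precursors alone.

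Klf1 (chr8:84901982-84905291, probe set 10573457) had 4.67, 4.59, 4.59 and 4.32 in the spaceflight arrays, against 4.73, 4.89, 4.48 and 4.37 in the ground-control arrays. The groups overlapped throughout, and the difference was -0.07 with an interval from -0.37 to 0.23 (adjusted p = 0.835). The correlation of Klf1 with Alas2 was 0.0315 (Pearson; permutation p = 0.947) and 0.108 (Spearman; permutation p = 0.808), with adjusted p of 0.947 and 0.943. Without spaceflight replicate 1 and ground-control replicate 3, r was 0.733 over 6 arrays, so this value turned on those arrays.

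Epor, the receptor through which erythropoietin signals (chr9:21958897-21963576, probe set 10591660), had 6.12, 5.58, 5.91 and 6.34 in the spaceflight arrays, against 5.58, 5.94, 5.86 and 5.88 in the ground-control arrays. It was the only member besides Gata1 with a higher mean in spaceflight, by 0.17 with an interval from -0.17 to 0.51 (adjusted p = 0.659). Gata1 and Epor had an r of 0.828 (permutation p = 0.0152, adjusted p = 0.0609) and a rho of 0.738 (permutation p = 0.0458, adjusted p = 0.257). That relation rested on spaceflight replicates 2 and 4, since r was 0.357 without them.

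Slc4a1, which encodes band 3, the chloride and bicarbonate exchanger of the red cell membrane (chr11:102348820-102365281, probe set 10391649), had 5.87, 5.58, 6.14 and 5.66 in the spaceflight arrays, against 6.02, 5.76, 6.02 and 5.72 in the ground-control arrays. The highest and the lowest array were both from flown mice. The difference was -0.07, with an interval from -0.38 to 0.24 (adjusted p = 0.846).

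Bpgm makes bisphosphoglycerate, which lowers the oxygen affinity of hemoglobin (chr6:34476356-34505136, probe set 10537179). It had 7.55, 7.90, 7.83 and 7.74 in the spaceflight arrays, against 7.88, 7.76, 7.98 and 7.81 in the ground-control arrays. Its lowest and highest arrays were those of Alas2, spaceflight replicate 1 and ground-control replicate 3. The difference was -0.10, with an interval from -0.35 to 0.14 (adjusted p = 0.711). It correlated with Alas2 at an r of 0.887 (permutation p = 0.00722, adjusted p = 0.0505) and a rho of 0.69 (permutation p = 0.0694, adjusted p = 0.324), and without these arrays at an r of 0.381 over 6 arrays, so the relation rested on them.

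Other genes of the red cell program were taken from 9 lists, and 0 genes of any list passed over all genes tested. The lists' medians are read beside that of all genes, -0.02, and beside the drift with brightness, from 0.11 in the tenth of genes where the median difference was highest to -0.14 in the tenth where it was lowest. With arrays centred on the 75th percentile, where all genes had a median of 0.12, the medians turned positive for transcription factors (0.13), membrane genes (0.07), Epo receptor signalling (0.03) and late remodelling (0.04). Counts at an unadjusted p under 0.05 are read beside 10.8% and counts of genes whose groups did not overlap beside 6.01%.

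Heme synthesis had the lowest median of the 9 lists. All 14 measured genes of the heme list, Alas2 among them, had lower means in spaceflight, with a median of -0.28, and 5 were at an unadjusted p under 0.05. With arrays centred on the 75th percentile 10 of 14 were lower (median -0.14), and relative to genes of the same brightness 11 of 14 were (median -0.15). Uros, which forms the porphyrin ring, differed by -0.39 ± 0.13 (± SE, adjusted p = 0.358). Slc25a38, the mitochondrial glycine carrier that feeds the pathway, differed by -0.44 ± 0.15 (adjusted p = 0.37), and Alad, its second enzyme, by -0.30 ± 0.12 (adjusted p = 0.406).

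Uros and Alad were the 2 genes of this list whose groups did not overlap. Alad had 7.60, 7.87, 7.85 and 7.88 in the spaceflight arrays, against 8.05, 7.94, 8.26 and 8.15 in the ground-control arrays. Most enzymes of this pathway work in every cell that makes heme, so they do not mark red cells. The mean over the list was lowest in spaceflight replicate 1 (7.15), then in spaceflight replicate 3 (7.44), and ran from 7.58 to 7.95 in ground control. Without these 2 flown mice 11 of 14 genes were lower, with a median of -0.11.

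The genes that mark the red cell membrane did not all share a direction. In the list of membrane and skeleton genes 11 of 17 were lower and 6 higher, with a median of -0.07, and 0 were at an unadjusted p under 0.05. Relative to genes of the same brightness 13 of 17 were lower (median -0.07), and with arrays centred on the 75th percentile 6 of 17 were. A mean of at least 6 was reached by 6 of these 17 genes, against 14 of 14 in the heme list, so the lists differ in brightness. Slc2a1, the glucose transporter, differed by -0.24 ± 0.15, Tmod1, which caps actin filaments, by -0.34 ± 0.22, and Ank1, which ties band 3 to spectrin, by 0.19 ± 0.12 (adjusted p from 0.541 to 0.542). Of 14 erythroid transcription factors 7 were lower and 7 higher, with a median of -0.01. Those of smallest p were Lmo2 (-0.32 ± 0.15) and Ldb1 (-0.27 ± 0.13), bridging proteins of the GATA1 complex, and Nfe2l1 (-0.27 ± 0.14), a factor active in most tissues (adjusted p from 0.463 to 0.489).

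The 5 globin genes with a probe set of their own are embryonic or minor forms, and their means over the 8 arrays all lay under 6. Of these 4 were higher and 1 lower, with Hbq1b, a theta globin, at 0.27 ± 0.15, Hbb-y, an embryonic beta-like globin, at 0.20 ± 0.12 and Hba-x, an embryonic alpha-like globin, at 0.10 ± 0.11 (adjusted p from 0.506 to 0.693). Relative to genes of the same brightness 3 were higher and 2 lower (median 0.04). With arrays centred on the 75th percentile all 5 were higher (median 0.24).

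Iron uptake and storage genes had a median of -0.15, with 8 of 11 lower and 1 at an unadjusted p under 0.05. The median was -0.01 with 6 of 11 lower when arrays were centred on the 75th percentile, -0.06 with 7 of 11 lower relative to genes of the same brightness, and -0.03 with 6 of 11 lower without spaceflight replicates 1 and 3. The gene at an unadjusted p under 0.05 was Slc25a37, the mitochondrial iron importer mitoferrin, at -0.29 ± 0.12, followed by Aco1, which doubles as an iron-sensing RNA-binding protein, at -0.30 ± 0.14, and Tfrc, the transferrin receptor, at -0.33 ± 0.16 (adjusted p from 0.439 to 0.471). Genes of Epo receptor signalling had a median of -0.11 with 9 of 11 lower, and 5 of 11 were lower relative to genes of the same brightness. The smallest p there belonged to Ptpn6, a phosphatase that damps the receptor (-0.22 ± 0.13), and to the feedback inhibitors Cish (-0.20 ± 0.12) and Socs3 (-0.16 ± 0.12), with adjusted p from 0.512 to 0.596.

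Red cell enzymes had a median of -0.15, with 10 of 13 lower and 3 at an unadjusted p under 0.05. These were Car2, a carbonic anhydrase, at -0.55 ± 0.18, Aldoa, a glycolytic enzyme, at -0.50 ± 0.21, and Ak1, an adenylate kinase, at -0.44 ± 0.20 (adjusted p from 0.346 to 0.456). With arrays centred on the 75th percentile 7 of 13 enzymes were lower (median -0.0095), and relative to genes of the same brightness 9 of 13 were (median -0.06). Without spaceflight replicates 1 and 3 only 6 of 13 were lower, with a median of 0.01.

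Genes of late red cell remodelling had a median of -0.10 with 6 of 10 lower. Ube2l6, which conjugates the interferon-induced modifier ISG15 and is also abundant in maturing red cells, had 6.04, 6.87, 6.42 and 6.44 in the spaceflight arrays, against 7.06, 7.05, 7.77 and 7.13 in the ground-control arrays. Its groups did not overlap, and its difference of -0.81 ± 0.20 had an adjusted p of 0.196. Ube2o, which clears proteins from reticulocytes, was at -0.25 ± 0.13 and Xpo7, a nuclear exporter used as the nucleus condenses, at -0.20 ± 0.11 (adjusted p = 0.492 and 0.504).

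Genes for clearing heme and red cells had a median of 0.00, with 5 of 11 lower. Hmox1, the enzyme that breaks down heme, had 7.08, 7.69, 7.18 and 8.92 in the spaceflight arrays, against 7.24, 6.76, 7.63 and 6.87 in the ground-control arrays. Its highest value came from spaceflight replicate 4, and its difference was 0.59 ± 0.34 (adjusted p = 0.514). Slc48a1, a heme transporter, differed by -0.23 ± 0.14 (adjusted p = 0.519). Hp, the hemoglobin scavenger haptoglobin, had 6.9996, 8.76, 8.35 and 9.64 in the spaceflight arrays, against 8.93, 9.07, 9.95 and 8.34 in the ground-control arrays. The groups overlapped, with spaceflight replicate 1 the lowest array, and the difference was -0.64 ± 0.47 (adjusted p = 0.581), or -0.16 without that array. Without spaceflight replicates 1 and 3 the list's median was 0.23, with 2 of 11 lower.

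**Figure D4:**
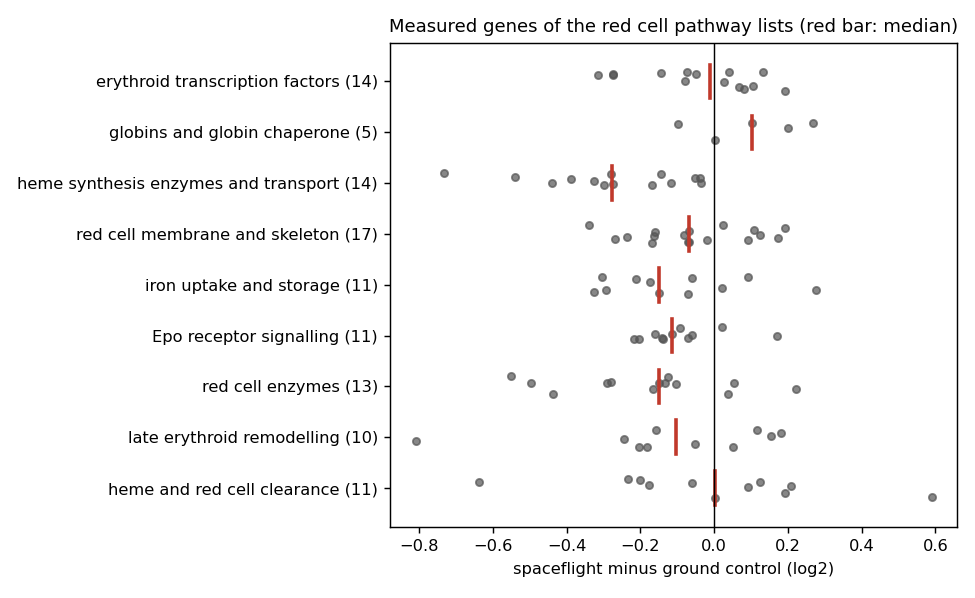
Spaceflight minus ground control (log2, horizontal axis) for every measured gene of the 9 red cell lists, with a point for each gene, a red bar for the list's median and the number measured in brackets. All 14 heme genes lie below 0 (median -0.28), while transcription factors lie on both sides (median -0.01).

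Markers of other cells in the tissue moved with some of the same arrays. Endothelial genes, which mark vessel walls, had a mean over 10 of 10 measured genes from 6.52 to 7.02 in spaceflight and from 6.69 to 7.62 in ground control. The lowest array was spaceflight replicate 1 and the highest ground-control replicate 3, as for Alas2. Tek and Cdh5, a receptor and an adhesion protein of endothelium, differed by -0.53 ± 0.28 and -0.47 ± 0.25, and Pecam1 (0.05) and Plvap (-0.16), the members of highest mean, by less (adjusted p from 0.485 to 0.895). Macrophage genes ranged from 7.52 to 8.58 in spaceflight and from 8.09 to 8.42 in ground control over 10 of 10 genes, with spaceflight replicate 1 again lowest. Adgre1, a macrophage surface receptor, differed by -0.55 ± 0.24, C1qc, a complement chain, by -0.39 ± 0.25 and Vcam1, an adhesion protein, by 0.06 ± 0.17 (adjusted p from 0.447 to 0.896). Without spaceflight replicate 1, 5 of 10 endothelial and 5 of 10 macrophage genes were lower, against 8 and 6 with all arrays. Without spaceflight replicates 1 and 3, 3 of 10 endothelial genes (median 0.06) and 1 of 10 macrophage genes (median 0.27) were lower. Their part in the values of Alas2 and globin was not tested.

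Among the other lineages that use GATA1, the mean over 8 of 12 megakaryocyte and platelet genes ran from 5.84 to 6.10 in spaceflight and from 5.93 to 6.11 in ground control. The mean over 9 of 10 mast cell genes ran from 5.49 to 5.77 in spaceflight and from 5.54 to 5.69 in ground control, and over 6 of 8 eosinophil genes from 5.10 to 5.19 in spaceflight and from 5.09 to 5.31 in ground control. The groups overlapped in the means of all 3 lists. The members of highest mean were Hdc and Kit in mast cells (-0.15 ± 0.16 and -0.14 ± 0.16) and Prg2 and Siglecf in eosinophils (-0.11 ± 0.12 and -0.05 ± 0.12), and those of smallest p in mast cells were Cpa3 (-0.39 ± 0.19) and Ms4a2 (0.25 ± 0.13). Of smallest p in eosinophils were Ccr3, given next, and Prg3, a granule protein, at 0.15 ± 0.11 (adjusted p = 0.580). Itgb3, the platelet integrin chain (-0.29 ± 0.13), Treml1, a receptor on platelets (0.34 ± 0.15), and Ccr3, the eotaxin receptor of eosinophils (-0.37 ± 0.12), were at an unadjusted p under 0.05 and none passed (adjusted p from 0.331 to 0.455). Ccr3 was the only gene of the eosinophil list whose groups did not overlap, and its probe set was dim (mean 5.09). Of the 8 megakaryocyte and platelet genes 5 were higher and 3 lower, with a median of 0.13. The lower ones were Itgb3, Ppbp (-0.56 ± 0.26) and Pf4 (-0.36 ± 0.21). Neutrophil genes, the other blood cells carried in by vessels, ranged over 12 of 12 genes from 5.36 to 5.66 in spaceflight and from 5.50 to 5.69 in ground control. Of these 12, 9 were lower and 3 higher, with a median of -0.08. Relative to genes of the same brightness 10 of 12 were lower (median -0.15), but 4 of 12 were with arrays centred on the 75th percentile (median 0.06). Most of the list was dim, with 2 of 12 genes at a mean of at least 6. The genes of smallest p were Mmp9, a secreted protease, at -0.63 ± 0.16 (adjusted p = 0.242), the only gene of the list whose groups did not overlap, and Csf3r, the receptor for granulocyte colony-stimulating factor, at 0.25 ± 0.14 (adjusted p = 0.500). Ltf, lactoferrin, among the members of highest mean, differed by -0.89 ± 0.50 (adjusted p = 0.504), and by -0.24 without spaceflight replicate 1.

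The genes most like the red cell members were found by Pearson's r over the 8 arrays with the mean of the 6 measured members, each centred on its own mean. That profile mostly follows Alas2, whose own r with it was 0.913, and then Bpgm (0.725) and Slc4a1 (0.515), while Klf1 (0.113), Gata1 (-0.0424) and Epor (-0.261) did not follow it. Each member is itself part of this mean, and Alas2, with the widest range over the arrays (2.42), weighs most in it. Of 19932 other genes, the 8 of highest r were Tmtc2 (0.994), Lhfp (0.992), Sod3 (0.965), Cfap44 (0.961), Samd4 (0.96), Mlf1 (0.958), Dgat2 (0.958) and Glyatl3 (0.955). Sod3 encodes the extracellular superoxide dismutase and Dgat2 an enzyme that completes triglyceride synthesis, and none of the 8 is on a red cell list. They are the top of a long ranking over 8 points and are given as a description. Dgat2 had 9.32, 10.02, 10.24 and 9.85 in the spaceflight arrays, against 10.12, 10.24, 10.60 and 9.96 in the ground-control arrays, with the lowest and highest arrays again spaceflight replicate 1 and ground-control replicate 3.

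**Figure D5:**
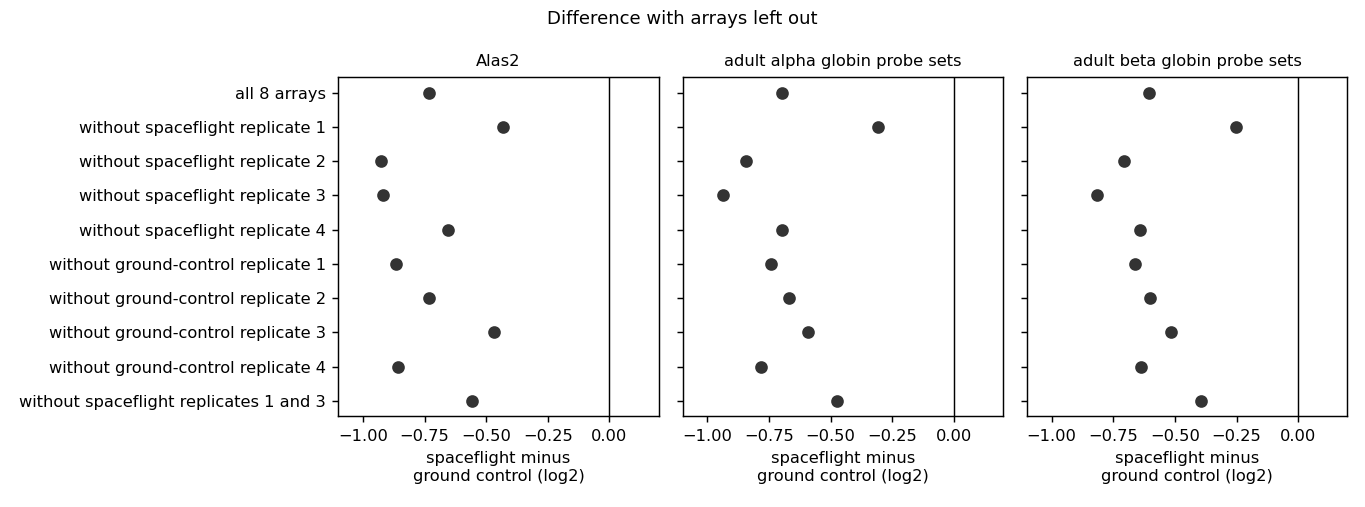
Spaceflight minus ground control (log2) for Alas2 and for the averaged alpha and beta globin probe sets, with all 8 arrays, with each array left out in turn, and without spaceflight replicates 1 and 3. The differences stay below 0 in every case shown and are smallest without spaceflight replicate 1 (-0.43, -0.31 and -0.25).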

How the data were processed

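The deposited table holds log2 expression values from Affymetrix arrays, 1 per mouse, made by the authors with RMA, with limma also named, per the submitters' processing notes. RMA is in general a background correction, a quantile normalization and a summary per probe set. Versions of these tools and a genome build are not given in the sources used here. Per the labels' protocols, Trizol-extracted total RNA (6 µg) was made into biotin-labelled cRNA. Of 35557 probe sets, the lowest unbroken run of identifiers (6614, none annotated) was left out as presumed controls. Of the 28943 left, 21789 had a single gene and 1621 several. Symbols were updated through Entrez identifiers with RefSeq (GRCm38.p6; 21698 matched). A gene was read by its single-gene probe set of highest mean over the 8 arrays.

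Spaceflight was compared with ground control over all 19938 genes in R 4.3.3 with limma 3.58.1 (two-sided, Benjamini-Hochberg, threshold 0.05). On simulated data this procedure recovered fewer of the genes given small changes than of those given large ones, so a small change can be missed. Single measures had exact permutation tests over the 70 ways of assigning arrays, and relations between profiles had permutation tests over all orders of the 8 arrays. The red cell genes, the 9 pathway lists and the marker lists of 7 other cell types were chosen with earlier results of these data known. The rule named every measured member, genes past the threshold or otherwise the 3 of smallest p in each pathway list, the 2 of smallest p and the 2 of highest mean in each marker list, and the 8 genes most like the members. Alternatives were other centring, repeated quantile normalization, a dim filter at 6, array weights, an intensity trend, testing all probe sets, averaging probe sets, arrays left out and a replicate block. No 2 arrays held identical values. The design text counts 4 mice a group, which are taken as separate animals, and their number limits the precision.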

Additional observations from a re-analysis of the deposited data

Results flagged for a closer look

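In 4 of 116 sets of 4 arrays, a set being 1 named gene or globin measure in 1 group, a single array stood far from the other 3, past Dixon's 95% critical value for the gap divided by the group's range. Chance alone gives about 1 in 20. In spaceflight, Alad was at 7.60 in replicate 1, where the other flown mice had 7.85, 7.87 and 7.88. In ground control, replicate 3 was the high array in the other sets, with Plvap at 7.98 where the other controls had 6.99, 7.07 and 7.16, Tek at 7.48 where they had 6.26, 6.39 and 6.45, and Ube2l6 at 7.77 where they had 7.05, 7.06 and 7.13. These are the arrays at the ends of the Alas2 range. Neither Alas2 nor a globin measure was among the sets with such a gap.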

How the results depend on the processing

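No red cell gene passed under any alternative that had a test, and Alas2 and Epor kept their direction in each, Alas2 from -0.93 to -0.43 and Epor from 0.05 to 0.31. Other signs turned. With arrays centred on their 75th percentiles, Slc4a1 was at 0.068, Klf1 at 0.0651, Bpgm at 0.036, Prg2 at 0.0291, Siglecf at 0.0928 and Rag1 at 0.123, the members' median was 0.0666, and 3 genes in all were called lower. With repeated quantile normalization Gata1 was at -0.0369, Bpgm at 0.0375 and Rag1 at 0.0052. Relative to genes of the same brightness Gata1 was at -0.0581, Bpgm at 0.036 and Rag1 at 0.101. A minimum mean of 6 left Alas2 and Bpgm, with a median of -0.418, and 22 genes called lower. Testing all probe sets gave 8 genes called lower.

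Without spaceflight replicates 1 and 3, 8 genes were called higher and 8 lower, and Hp (0.123), Hdc (0.0705), Kit (0.014), C1qc (0.072) and Plvap (0.177) turned positive. Leaving out single arrays gave 1 to 2 genes called higher and 5 to 13 lower. It gave differences from -0.18 to 0.0068 for Slc4a1, -0.158 to 0.0176 for Klf1, -0.0122 to 0.094 for Gata1, -0.105 to 0.012 for Siglecf, -0.0695 to 0.169 for Vcam1, -0.0244 to 0.148 for Pecam1, -0.374 to 0.0693 for Plvap and -0.0766 to 0.0411 for Rag1. The causes of these turns were not tested. With the replicate number as a replicate block, Alas2 had a limma adjusted p of 0.193, 0 members were called, and 3 genes in all were called higher and 17 lower. Same-numbered deviations correlated from -0.296 to 0.243. The labels give no link between same-numbered samples beyond the number, and so few values do not settle whether there was one.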
